A study of Mus musculus with 36 samples.

Results

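Tumors grown from MC38 cells were compared with 5 organs of tumor-bearing mice that received a control immunoglobulin (IgG). MC38 is a mouse colon carcinoma line, and all mice were age- and sex-matched wild-type C57BL/6 animals carrying such tumors. The comparison used 18 of the 36 RNA sequencing libraries of the study, 3 each from tumor, heart, skeletal muscle, liver, lung and kidney. The other 18 libraries came from the same 6 tissues of mice given immune checkpoint blockade (ICB), a high dose of antibodies to PD1 and CTLA4. They served here as separate libraries in which the same contrast was repeated and compared. All tissues were flash frozen, RNA was extracted with TRIzol and libraries were made with an Illumina TruSeq kit from total RNA. The labels used here do not state the animals' age or sex, the site of the tumor, or whether every library came from a different mouse, so p-values measure the spread between these libraries.

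The quantity compared was log2(FPKM + 1), where FPKM is fragments per kilobase of gene, scaled to a library size, as deposited. The library sizes implied by the values were not the read totals over genes. Their ratio to the reads, relative to the geometric mean of all libraries, was 1.512 to 1.548 in tumor and 1.447 to 1.568 in lung. It was 1.042 to 1.092 in kidney, 0.827 to 0.861 in heart, 0.724 to 0.814 in muscle and 0.554 to 0.599 in liver. The deposited values thus already carried a scaling between tissues. The organ average was the mean of the 5 organ group means, so that each organ had equal weight. Of 18760 named genes, 15230 had an FPKM of at least 1 in at least 3 libraries of 1 tissue and were tested. A gene expressed in 1 tissue alone passed this filter through that tissue. A gene near 0 in tumor passed through an organ that is part of the average, which largely fixed its direction as lower. In what follows a gene is called higher or lower where the adjusted p of limma, a linear model fitted over all genes tested, was below 0.05. A gene is called higher or lower than each organ where the largest of its 5 pairwise p-values passed after adjustment and all 5 differences had 1 sign. Differences are given on the log2(FPKM + 1) scale with their standard error (SE), which understates changes of weakly expressed genes.

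A transplanted tumor mixes the injected cancer cells with blood vessels, fibroblasts and white blood cells of the host, and bulk RNA holds all of them together. Cancer cells in a growing tumor divide, which needs enzymes for DNA replication, nucleotides and new ribosomes, whereas most cells of adult heart, muscle, kidney and liver rarely divide and carry out specialised metabolism. Because bulk tissue was measured, fewer cells of a type and less RNA per cell cannot be told apart in any result below.

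The IgG libraries held 19012513 to 25512980 reads each, and those of the tumor 21702653 to 25512980. Tissues differed in how their reads were spread over genes. The 20 most abundant genes took 6.39% to 7.0% of reads in tumor and 32.3% to 33.1% in heart, and mitochondrially encoded genes took 1.69% to 2.09% in tumor and 22.6% to 23.3% in heart. The tumor libraries were not equally alike. Across genes, log2(FPKM + 1) correlated with r = 0.990 between tumor replicates 1 and 2, 0.967 between replicates 1 and 3 and 0.974 between replicates 2 and 3. Of 15230 genes, 838 (5.50%) spanned at least 1 log2 unit over the 3 tumor libraries, and in 645 of them replicate 3 lay farthest from the middle value. Results that rest on replicate 3 are therefore given with and without it.

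Against the organ average, 5279 genes (34.7% of those tested) were higher in tumor and 6551 (43.0%) were lower, and 3400 (22.3%) were not called. Differences of at least 1 log2 unit were found in 2419 of the higher and 3110 of the lower genes. A stricter reading left 2067 genes (13.6%) higher in tumor than in each of the 5 organs and 831 (5.46%) lower than in each. In 2377 genes (15.6%) all 3 tumor libraries lay above all 15 organ libraries, and in 1385 (9.09%) they lay below. Without tumor replicate 3 the numbers were 4927 higher, 6280 lower, 1928 higher than each organ and 785 lower than each. The median difference over all genes was -0.12. Rescaling every library to 1 common FPKM total, known as TPM, moved that median to 0.92, because the tumor libraries had the lowest FPKM totals (202450 to 214312, against up to 785153 in liver). These totals include the scaling between tissues that the deposited values carried, and a common total removes it. On that scale 9471 genes were higher and 3832 lower than the organ average. Genes called lower whose sign turned on that scale are marked below. The lower calls of mt-Tp, Scd1, Bgn, Cdh2, Entpd1, Apoe and Dpt ended on it, as did the calls of Kdr, Cth and Nr1d1 against each organ. Msh3, Xrcc5, Ldha, Gapdh, Cdkn1a, Ctnnb1, Apc, Adpgk, Csf1r, Lyz2, Ifit3, Irf7, Mx2, Fcrls, Mfap4, Sulf2 and Wfdc2, none of them called on the deposited scale, were called higher on it. Counts of list members below stand against the 34.7% of all genes tested that were higher and the 43.0% that were lower.

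**Figure D1:**
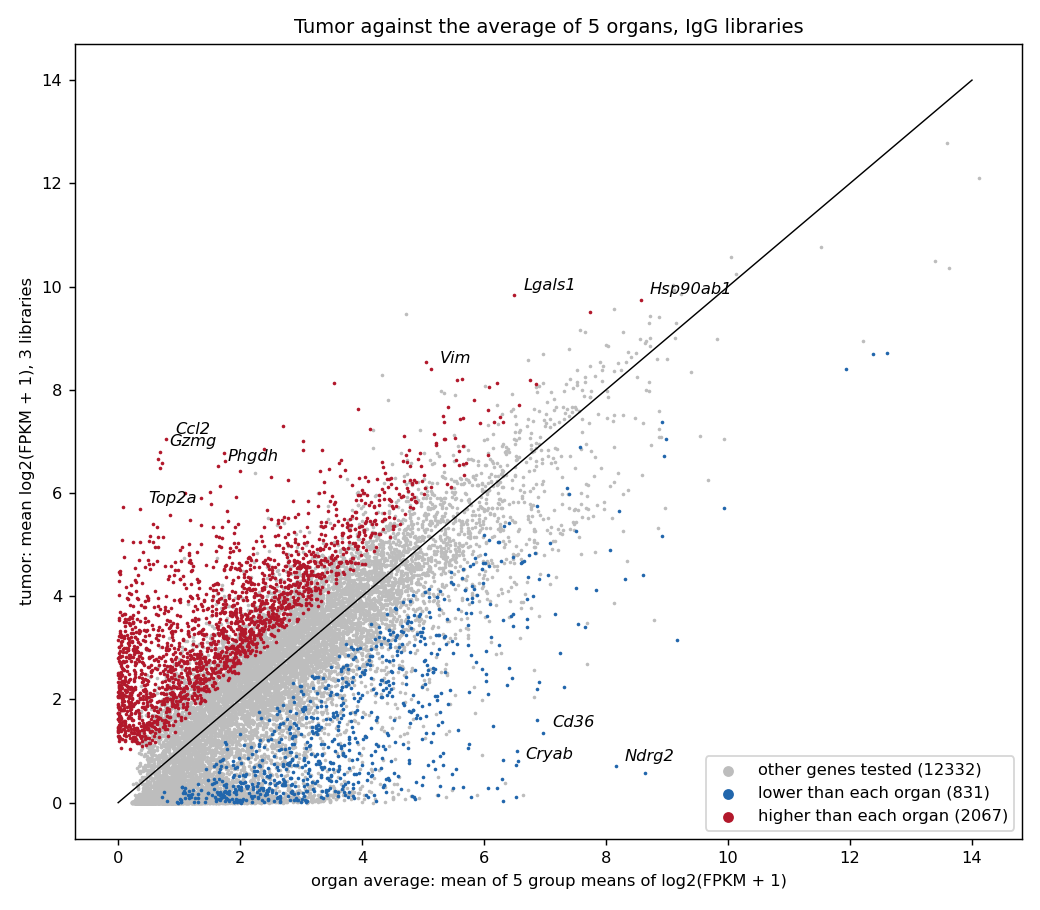
Mean log2(FPKM + 1) of the 3 IgG tumor libraries (vertical axis) against the organ average (horizontal axis) for the 15230 genes tested, 1 point per gene, with the line of equality. Red points are the 2067 genes higher in tumor than in each organ, blue points the 831 lower than in each, and grey points all others; Ccl2, Gzmg and Top2a sit far above the line and Ndrg2, Cryab and Cd36 far below it.

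Lung was the organ nearest to the tumor. The median absolute difference per gene was 0.69 log2 units between tumor and lung, 0.76 for heart, 0.77 for muscle and 0.78 for both kidney and liver. Pearson's r across genes was 0.665 with lung and 0.526 with liver, the lowest of the 5. Mitochondrially encoded genes took 1.58% to 3.24% of reads in lung, which overlapped with the share in tumor.

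The genes with the largest excess in tumor, among those higher than each organ with no overlap between libraries, were a chemokine, a group of granzymes, proliferation genes, a collagen and metabolic genes. Ccl2 (chr11:82035571-82037453, mm10), which encodes a chemokine that attracts monocytes, measured 229, 175 and 54.8 FPKM in tumor replicates 1, 2 and 3 and at most 4.08 FPKM in any organ library. As the choice of genes required, all tumor libraries lay above all organ libraries, with replicate 3 the lowest of the tumors. The difference was 6.25 ± 0.31 (SE; adjusted p = 2.5e-11, limma). Cxcl10, an interferon-induced chemokine for activated T cells, measured 34.5, 42.2 and 48.0 FPKM in tumor and 0.0925 to 1.24 FPKM in the organs, a difference of 4.82 ± 0.20.

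Granzymes are proteases that killer lymphocytes deliver into target cells. Gzmg measured 99.0, 220.4 and 61.0 FPKM in tumor replicates 1, 2 and 3 and reached 5.68 FPKM among organ libraries, a value found in lung. Its difference from the organ average was 6.11 ± 0.32, and those of Gzmc, Gzmf and Gzmd were 6.00 ± 0.25, 5.86 ± 0.36 and 5.80 ± 0.32. In each of these 4 genes tumor replicate 2 was the highest tumor library. They lie close together on 1 chromosome, from Gzmd at chr14:56129556-56132608 to Gzmc at chr14:56231441-56234656, and are near copies, so the counting may have split reads among them.

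Shisal2b measured 50.9, 67.7 and 40.5 FPKM in tumor and at most 0.452 FPKM in any organ library. It lies at chr13:104845283-104863893, where the GENCODE annotation holds no other gene, and its difference of 5.64 ± 0.11 came next to those of the granzymes. The remaining genes of this rank were Top2a, Col6a3, Rrm2, Phgdh and Slc7a5, which are described with their groups below. Absence of overlap with the organ libraries was a condition for choosing these 12 genes, so it is not a separate result.

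**Figure D2:**
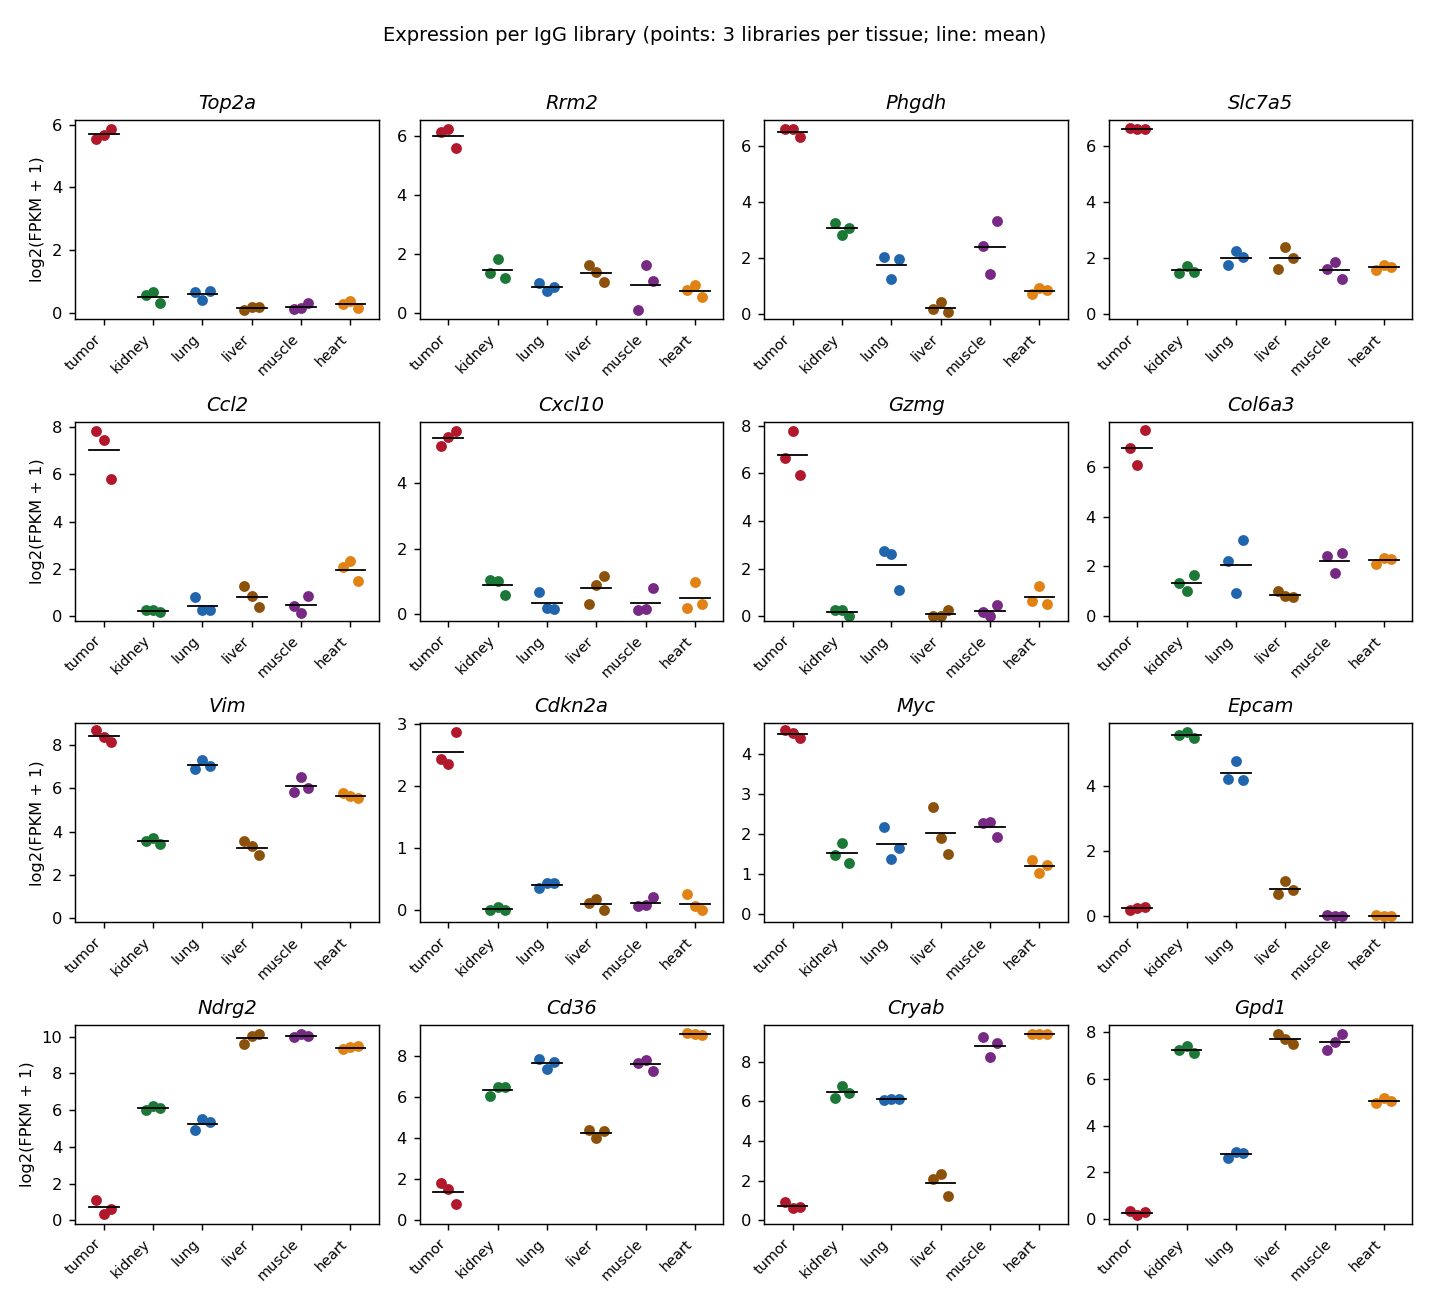
Log2(FPKM + 1) of 16 genes in each of the 18 IgG libraries, 1 panel per gene, with 3 points per tissue and a line at their mean. In the first 8 panels the tumor points stand above every organ, while Epcam is near 0 in tumor, muscle and heart, and Ndrg2, Cd36, Cryab and Gpd1 are lowest in tumor.

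Among abundant transcripts, the 10 highest in tumor of those higher than each organ included cytoskeletal, chaperone and nucleolar proteins. Lgals1, which encodes the sugar-binding protein galectin-1, measured 723, 821 and 1259 FPKM in tumor and 9.38 to 430.2 FPKM in the organs, without overlap. Hsp90ab1, a cytosolic chaperone, measured 844, 863 and 864 FPKM, against at most 683 FPKM in an organ library. The values of Hsp90ab1 hardly varied among the tumors, and its difference was modest at 1.17 ± 0.13. Tubb5, a beta-tubulin of dividing cells, measured 350.0, 376 and 383 FPKM in tumor and stayed at or below 49.1 FPKM in organs, a difference of 3.49 ± 0.11. Ptma, Vim, Col6a1, Npm1, Tuba1b, Cfl1 and Hnrnpab completed this set, with differences from 1.43 (Cfl1, an actin-severing protein) to 4.60 (Col6a1). Calls against each organ were lost for Hsp90ab1 without any 1 tumor library (adjusted p = 0.0563, 0.0716 and 0.0604 without replicates 1, 2 and 3, limma) or without muscle replicate 3 (0.11). For Cfl1 they were lost without tumor replicate 2 (0.0823) or lung replicate 3 (0.0943). Both stayed higher than the average.

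Cell cycle and mitosis genes were higher in tumor than the organ average without exception among those tested. All 29 of 29 tested members were higher than the organ average and 27 were higher than each organ, with a median difference of 3.63. The median was 3.40 against lung and 3.61 against liver. Top2a, the topoisomerase that untangles chromosomes before division, measured 45.8, 49.9 and 57.1 FPKM in tumor and 0.0738 to 0.615 FPKM in organs, a difference of 5.34 ± 0.09 (adjusted p = 2.92e-16, limma). Mki67, the classical marker of dividing cells, measured 32.8, 33.8 and 38.5 FPKM in tumor and at most 1.47 FPKM in organs. No organ library came near the tumors in either gene.

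Further large differences were found for Mybl2 (4.80 ± 0.09), a transcription factor of proliferating cells, and for Cdc20 (4.73 ± 0.15), an activator of the ubiquitin ligase that ends mitosis. Tpx2 (4.57 ± 0.14), a spindle assembly factor, and Plk1 (4.44 ± 0.12), a mitotic kinase, belonged to the same range. The 2 members not higher than each organ were Cenpf and Ccnd1. Ccnd1, the cyclin that couples growth signals to cell cycle entry, measured 25.2, 32.9 and 23.7 FPKM in tumor and 55.9, 48.8 and 50.0 FPKM in kidney, where it was higher than in tumor. Cenpf, a kinetochore protein, measured 3.91, 3.12 and 3.60 FPKM in tumor and 2.16, 2.98 and 3.26 FPKM in heart. Kif11, a mitotic motor, missed the filter at 0.968, 0.461 and 0.420 FPKM in tumor.

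Cell cycle genes are known to share promoter elements, and the promoters of these members were therefore searched for 4 words on either strand in the 250 bases before the transcription start. The words were CCAAT, bound by NF-Y; TTTGAA, the core of the cell cycle homology region; and TTTCGCGC and TTTGGCGC, forms of the E2F site. RefSeq promoters (GRCm38.p6) were found for 22 of the 29 members tested, 23 promoters in all. CCAAT occurred in 18 (78.3%) of them, 2 or more copies in 12 (52.2%) and TTTGAA in 7 (30.4%). Among all 32851 promoters of the same length in the table the shares were 33.8%, 10.1% and 16.0%, and among 14228 promoters of genes tested they were 34.6%, 12% and 11%. All 7 promoters with TTTGAA also held CCAAT. An E2F word occurred in 1 (4.35%), against 0.654% of all promoters and 1.10% of those of genes tested. A match describes letters in a window and not a bound site. The 4 members with the largest difference that held both CCAAT and TTTGAA are shown 5′ to 3′ in the direction of transcription, ending at the base before the start, with these words or their reverse complements in capitals. They lie at chr11:99024190-99024439 (Top2a), chr4:118437344-118437593 (Cdc20), chr7:135716380-135716629 (Mki67) and chr9:70421555-70421804 (Ccnb2, a mitotic cyclin), all on the minus strand. 
Top2a: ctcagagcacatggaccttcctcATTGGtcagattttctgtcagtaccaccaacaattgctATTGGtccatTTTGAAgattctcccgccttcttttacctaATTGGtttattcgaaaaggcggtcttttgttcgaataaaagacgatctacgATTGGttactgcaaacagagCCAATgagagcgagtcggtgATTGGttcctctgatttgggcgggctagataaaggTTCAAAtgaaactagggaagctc
Cdc20: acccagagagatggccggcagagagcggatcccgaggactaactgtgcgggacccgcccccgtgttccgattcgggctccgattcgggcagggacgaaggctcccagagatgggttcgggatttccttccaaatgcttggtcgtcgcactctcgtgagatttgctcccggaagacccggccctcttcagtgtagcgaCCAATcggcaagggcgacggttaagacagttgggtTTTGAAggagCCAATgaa
Mki67: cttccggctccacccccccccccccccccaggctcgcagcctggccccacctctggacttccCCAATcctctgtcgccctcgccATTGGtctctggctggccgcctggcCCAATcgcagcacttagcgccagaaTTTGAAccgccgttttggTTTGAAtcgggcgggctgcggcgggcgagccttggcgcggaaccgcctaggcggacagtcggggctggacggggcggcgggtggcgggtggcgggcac
Ccnb2: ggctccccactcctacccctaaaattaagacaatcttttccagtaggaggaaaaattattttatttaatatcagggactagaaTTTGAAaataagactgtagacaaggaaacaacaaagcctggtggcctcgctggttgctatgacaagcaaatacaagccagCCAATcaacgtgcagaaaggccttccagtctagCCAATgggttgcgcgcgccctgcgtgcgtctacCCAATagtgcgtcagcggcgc
The Top2a promoter held 6 CCAAT words between 227 and 58 bases before the start, and that of Ccnb2 held 3, at 87, 54 and 21 bases. In Cdc20 a TTTGAA lay 18 bases before the start with CCAAT on either side, at 53 and 8 bases.

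DNA replication genes followed the cell cycle genes closely. All 29 of 29 members were higher than the organ average and 28 higher than each organ, with a median difference of 2.54. Uhrf1, which keeps DNA methylation on newly made strands, measured 24.4, 35.7 and 37.6 FPKM in tumor and at most 1.98 FPKM in organs, a difference of 4.48 ± 0.14. Mcm5 and Mcm3, subunits of the replicative helicase, measured 37.4, 48.0 and 46.1 FPKM and 35.1, 44.1 and 39.2 FPKM in tumor, with differences of 4.31 ± 0.17 and 3.77 ± 0.16. Replicate 1 was the lowest of the tumor libraries in all 3 genes. The exception among members was Mcm10, a DNA replication factor, which measured 5.36, 5.72 and 4.50 FPKM in tumor and 7.04, 6.03 and 7.39 FPKM in liver. Pcna, the sliding clamp of DNA polymerases, was the member with the highest organ levels: its 66.5, 86.7 and 72.1 FPKM in tumor stood above organ group means of 14.8 to 17.4 FPKM.

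The promoters of the replication genes were searched in the same way. Of 30 promoters of 25 members, 6 (20%) held an E2F word, 19 (63.3%) CCAAT and 4 (13.3%) TTTGAA. The promoters of Mcm5 (chr8:75109259-75109508, plus strand) and Mcm6 (chr1:128359706-128359955, minus strand) are shown because each holds both E2F words, a rule chosen after the counts were seen. Mcm6, another helicase subunit, measured 35.4, 40.8 and 42.6 FPKM in tumor, with a difference of 3.42 ± 0.12. 
Mcm5: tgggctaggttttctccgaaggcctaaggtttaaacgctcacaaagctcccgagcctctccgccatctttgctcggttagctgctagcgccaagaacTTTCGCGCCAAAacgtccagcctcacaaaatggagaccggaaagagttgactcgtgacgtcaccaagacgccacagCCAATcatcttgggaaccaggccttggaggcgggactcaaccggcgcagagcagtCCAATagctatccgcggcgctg
Mcm6: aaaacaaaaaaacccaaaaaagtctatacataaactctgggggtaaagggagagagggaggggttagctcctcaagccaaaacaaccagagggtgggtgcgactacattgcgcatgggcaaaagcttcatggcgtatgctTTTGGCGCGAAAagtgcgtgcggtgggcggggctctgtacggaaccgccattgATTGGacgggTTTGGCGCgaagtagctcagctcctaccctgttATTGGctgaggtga
In each, 1 capital run holds both E2F words, which overlap on opposite strands, and Mcm6 holds TTTGGCGC once more 47 bases before the start. Both promoters hold CCAAT 2 times. Over all 1889 promoters of genes higher than each organ, CCAAT occurred in 39.9% and an E2F word in 2.54%, and over the 857 promoters of genes lower than each organ in 36.9% and 0.233%.

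DNA repair genes were higher than the organ average in 22 of 24 members and higher than each organ in 20, with a median difference of 1.86. Brca1, which acts in repair by homologous recombination, measured 5.40, 6.84 and 7.07 FPKM in tumor, a difference of 2.62 ± 0.11. Msh6, a mismatch recognition subunit, measured 23.4, 24.5 and 18.4 FPKM in tumor and at most 6.24 FPKM in organs. The members not called were Msh3 (-0.07 ± 0.09) and Xrcc5 (-0.16 ± 0.16), a mismatch repair and an end-joining protein, and both turned to higher on the scale of 1 common FPKM total (0.82 and 0.97).

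Nucleotide synthesis enzymes were higher than the average in 19 of 24 members and higher than each organ in 10, with a median of 1.27. Rrm2, the regulated subunit of ribonucleotide reductase, which makes the DNA building blocks, measured 70.0, 74.7 and 47.9 FPKM in tumor and 0.0939 to 2.61 FPKM in organs, a difference of 4.91 ± 0.23. Cad, the first enzyme of pyrimidine synthesis, measured 24.6, 26.5 and 16.7 FPKM, a difference of 2.58 ± 0.19. Rrm1, Dut and Atic followed with 2.48 ± 0.09, 2.35 ± 0.18 and 2.25 ± 0.09. Paics, an enzyme of purine synthesis, was the 1 member called lower (-0.60 ± 0.11), and its sign turned when libraries were scaled to 1 common FPKM total (0.55). It measured 36.1, 37.9 and 30.6 FPKM in tumor and group means of 81.7 FPKM in kidney and 106 FPKM in liver.

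Serine and one-carbon enzymes were found at both extremes. Phgdh, the first enzyme of serine synthesis, measured 97.1, 96.8 and 79.8 FPKM in tumor and 0.0331 to 8.98 FPKM in organs, a difference of 4.88 ± 0.26. Mthfd2 and Mthfd1l, mitochondrial folate enzymes, had differences of 3.65 ± 0.12 and 3.38 ± 0.12, and Psat1, the next serine synthesis enzyme, 3.33 ± 0.18. In contrast, Cth and Cbs, which convert homocysteine to cysteine, measured 0.119, 0.279 and 0.0557 FPKM and 0, 0.0345 and 0.0698 FPKM in tumor, against liver means of 240.2 and 252 FPKM. Cth was lower than each organ, but not without tumor replicate 1 (adjusted p = 0.0744, limma), tumor replicate 3 (0.0884), heart replicate 2 (0.0963) or heart replicate 3 (0.0791). Mat1a, the methionine-activating enzyme of liver, measured 0.385, 0.0988 and 0.0566 FPKM in tumor. Of 19 members 9 were higher and 7 lower than the average, with a median of 0.32.

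Amino acid transporters were higher in 8 of 14 members and lower in 4. Slc7a5, the large neutral amino acid transporter LAT1, measured 99.6, 96.2 and 96.1 FPKM in tumor, nearly equal among the libraries, and at most 4.18 FPKM in organs, a difference of 4.86 ± 0.15 (adjusted p = 5.23e-14, limma). Slc7a1, a carrier of cationic amino acids, was also higher than each organ (2.98 ± 0.14). So was Slc7a11, the cystine importer, at 5.94, 3.96 and 1.38 FPKM in tumor and a difference of 2.06 ± 0.18, with replicate 3 the lowest. Slc38a4 and Slc38a3, carriers prominent in liver, were lower than the average, with differences of -3.63 ± 0.22 and -2.96 ± 0.24.

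Ribosome biogenesis genes were higher in 24 of 25 members and higher than each organ in 18, with a median of 1.42. Npm1, a nucleolar chaperone of ribosome assembly, measured 287, 309.8 and 289.5 FPKM in tumor and 30.8 to 77.7 FPKM in organs, a difference of 2.58 ± 0.15. Nop58 and Nop56, core proteins of the particles that modify ribosomal RNA, followed with 2.30 ± 0.10 and 2.20 ± 0.12. Nop10 was the 1 member called lower (-0.57 ± 0.19), a direction that turned on the scale of 1 common FPKM total and was not called without tumor replicate 1 (adjusted p = 0.15, limma). Myc, the transcription factor that drives such genes in many tumors, measured 23.2, 22.3 and 20.1 FPKM in tumor and at most 5.45 FPKM in organs. Its 3 tumor libraries lay above all organ libraries, with a difference of 2.77 ± 0.20 (adjusted p = 2.06e-09, limma).

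Genes of mitochondrial energy metabolism were lower. All 26 respiratory chain subunits tested were lower in tumor than the organ average, with a median of -1.76, and so were all 16 enzymes of the tricarboxylic acid cycle (-1.46) and all 20 of fatty acid oxidation (-2.06). On the scale of 1 common FPKM total the medians were -0.61, -0.32 and -0.96 in the same order. There 24 respiratory subunits, 8 cycle enzymes and 18 oxidation enzymes were still called lower, and 2 cycle enzymes and 1 oxidation enzyme were called higher. Levels were not lower than in every organ: no respiratory subunit and no cycle enzyme was lower than in each organ, and against lung the median of the respiratory subunits was 0.52. Against heart it was -3.36. Sdhb, a subunit of complex II, measured 25.8, 27.0 and 28.2 FPKM in tumor, 22.8, 23.7 and 19 FPKM in lung and 364, 398 and 389 FPKM in heart. Tumor and lung values lay close to each other without overlap, and heart stood far above both.

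Within fatty acid oxidation, Acaa2 was lower than each organ. This enzyme, which performs the last step of the mitochondrial pathway, measured 19.2, 18.2 and 12.8 FPKM in tumor and 37.3 to 878 FPKM in organs, a difference of -3.71 ± 0.14. Etfb, Ehhadh, Hadhb and Eci1 had differences of -2.86 ± 0.21, -2.85 ± 0.30, -2.51 ± 0.11 and -2.48 ± 0.11. None of these 4 was lower than each organ, and against lung alone the differences were -0.62, -0.15, -0.26 and -0.09.

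The 13 protein-coding genes of the mitochondrial genome were all lower than the organ average, with a median of -3.53. Against each organ, 3 were lower: mt-Nd2, mt-Nd4 and mt-Nd6, subunits of complex I. The gene mt-Nd2 measured 545, 431 and 306 FPKM in tumor, 1228, 1918 and 989 FPKM in lung and 16239, 16624 and 17843 FPKM in heart, a difference of -3.91 ± 0.24. Values of mt-Co2, mt-Co3, mt-Atp6 and mt-Nd4l were far below those of mt-Co1 in every tissue, and these genes have close copies in the nuclear genome, so their levels are uncertain. The largest negative difference of all named genes belonged to mt-Te, a very short mitochondrial transfer RNA gene, listed at 0, 0 and 2.25 FPKM in tumor and 21.0 to 1458 FPKM in organs (-8.07 ± 0.37). Genes that short are poorly captured by such libraries.

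Glycolysis genes were mixed. Of 29 tested, 13 were higher and 10 lower than the average, 2 higher than each organ, with a median of 0.14. Slc16a3, the lactate exporter MCT4, measured 108, 94.5 and 56.3 FPKM in tumor, 74.8, 89.9 and 84.1 FPKM in muscle and a mean of 5.59 FPKM in lung. Tumor and muscle overlapped, and all other organs were lower. Spread over tissues was wide for the isozymes: Pgam1, the widespread phosphoglycerate mutase, was higher than each organ (2.26 ± 0.14), while Pgam2, its muscle form, was lower than the average (-5.05 ± 0.20). Likewise Slc2a4, the insulin-regulated glucose transporter of muscle and heart, differed by -3.70 ± 0.11. Ldha (0.14 ± 0.18) and Gapdh (0.24 ± 0.14) were not called, and reads of Gapdh may be shared with its many pseudogenes. Both calls depended on the organs averaged: without lung Ldha and Gapdh were lower (-0.48 and -0.42), and without muscle (0.64 and 0.79) or with quantile normalization (1.41 and 0.96) they were higher. Pfkp was higher than each organ as well (1.90 ± 0.16). The calls against each organ were lost without tumor replicate 1 or 2 for Pgam1 (adjusted p = 0.147 and 0.11, limma) and for Pfkp (0.2 and 0.161), and without single heart or kidney libraries as well.

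Hypoxia-induced genes were higher in 11 of 18 members and lower in 4, with a median of 1.12. Ero1l, an oxidase of the endoplasmic reticulum, measured 62.5, 38.7 and 35.0 FPKM in tumor and at most 8.44 FPKM in organs, a difference of 2.99 ± 0.18. Car9, a carbonic anhydrase at the cell surface, measured 11.9, 9.53 and 4.98 FPKM in tumor, a difference of 2.49 ± 0.19. Both were lowest in tumor replicate 3, as were Slc2a1 (68.7, 47.7 and 22.2 FPKM) and Vegfa (33.7, 24.3 and 15.9 FPKM). Vegfa, the main growth factor of blood vessels, was lower in tumor than in each organ (-1.21 ± 0.17), although the highest tumor library overlapped with organ libraries. That call was lost without tumor replicate 2 (adjusted p = 0.08, limma) or 3 (0.22) and without any of 9 organ libraries left out singly, and on the scale of 1 common FPKM total Vegfa was not called against the average either (difference -0.07, adjusted p = 0.735, limma). Its mean was highest in lung, at 151 FPKM. Ddit4, a stress-induced inhibitor of growth signalling, was higher than the average (2.59 ± 0.76) with a wide error, and Bnip3, a mitophagy receptor, lower (-0.99 ± 0.31), the latter turning sign on the scale of 1 common FPKM total (0.17) and not called without tumor replicate 3 (adjusted p = 0.128, limma).

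MC38 is classed as a colon carcinoma, and epithelial markers were accordingly examined. Mean tumor levels of all but Cdh1 were below 1 FPKM, and no gene tested reached 1 FPKM in all 3 tumor libraries. Each of the 14 intestinal and carcinoma epithelium genes tested thus passed the filter through an organ that is part of the average. All 14 were lower than the average, with a median of -1.80, a direction the filter largely fixed. The median was -3.46, -4.04 and -1.44 against kidney, lung and liver, and 0.04 and 0.02 against muscle and heart. Of the 14 genes, 1 was lower than each organ. Epcam, the epithelial adhesion molecule, measured 0.148, 0.198 and 0.203 FPKM in tumor, 47.6, 49.8 and 43.6 FPKM in kidney and 17.8, 26.6 and 17.2 FPKM in lung. Krt8 and Krt18, the keratins of simple epithelia, measured 0.20, 0.463 and 0.230 FPKM and 0.129, 0.206 and 0.0555 FPKM in tumor. Cdh1, or E-cadherin, measured 0.790, 1.34 and 1.11 FPKM. In muscle and heart, which hold little epithelium, these genes were likewise low, and tumor means were below those of kidney, lung and liver.

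Wnt targets and intestinal regulators were lower in 8 and higher in 2 of 15 members tested, a share of lower genes near the 43.0% of all genes. Hnf4a, a master regulator of liver and gut epithelium, measured 0.0623, 0.0119 and 0.107 FPKM in tumor (-3.11 ± 0.10), and Gata6 0.0283, 0 and 0 FPKM (-2.35 ± 0.14). The Wnt target Nkd1 measured 0.0528, 0.0443 and 0 FPKM (-1.81 ± 0.15). Hnf4a, Gata6 and Nkd1, near 0 in tumor, passed the filter through an organ that is part of the average, which largely fixed their direction. Tcf7, a transcription factor of Wnt signalling and of T cells, was higher (1.58 ± 0.17) with 7.77, 4.13 and 7.50 FPKM in tumor and a mean of 9.76 FPKM in lung. The members not called included Ctnnb1, which encodes beta-catenin (0.06 ± 0.13), and Apc (-0.05 ± 0.17).

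Mesenchymal regulators and markers were mostly higher. Of 14 tested, 11 were higher than the average and 5 higher than each organ. Snai1, a repressor of E-cadherin, measured 55.5, 59.4 and 103 FPKM in tumor and at most 9.95 FPKM in organs (4.47 ± 0.24). Twist1, a transcription factor of mesenchyme, measured 25.9, 26.0 and 18.1 FPKM (3.36 ± 0.27), and Vim, the intermediate filament vimentin, 419.7, 327 and 283 FPKM (3.28 ± 0.16). Every tumor library exceeded every organ library in these 3 genes. Cdh2, or N-cadherin, was lower than the average (-1.15 ± 0.12), with 1.57, 1.54 and 0.839 FPKM in tumor and a mean of 54.4 FPKM in heart.

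Oncofetal and stemness genes were higher in 12 of 16 members tested. Sox9, a transcription factor of progenitor cells, measured 21.2, 19.1 and 25.3 FPKM in tumor and at most 3.03 FPKM in organs (3.57 ± 0.18). Hmga1 and Hmga2, chromatin proteins of embryonic cells, measured 202, 189 and 89.7 FPKM and 8.22, 4.96 and 1.71 FPKM, with differences of 3.12 ± 0.20 and 2.37 ± 0.21. Cd44, a hyaluronan receptor, was higher than each organ as well (3.32 ± 0.15). Of the lower members, Prom1 measured 0.00839, 0.0121 and 0.0181 FPKM and Igf2, a fetal growth factor, 0.0999, 0.0856 and 0.761 FPKM. Of 20 germline genes listed, 9 were present and 1 was tested, Rec8, a meiotic cohesin, which was lower (-0.77 ± 0.14). Rec8 does not stand for the list. The 9 genes summed to 3.48 to 21.6 FPKM in tumor, 2.82 to 4.68 FPKM in kidney and 2.70 to 3.79 FPKM in lung. The sum was at most 2.87 FPKM in liver, muscle or heart.

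Cdkn2a, which encodes the tumor suppressors p16 and p19Arf, measured 4.42, 4.11 and 6.28 FPKM in tumor and at most 0.357 FPKM in organs, a difference of 2.40 ± 0.09. Trp53, which encodes p53, was also higher than each organ (1.85 ± 0.14) at 14.7, 23.2 and 22.2 FPKM. Of 18 p53 targets and senescence genes, 10 were higher and 4 lower. Cdkn1a, the p53-induced cell cycle inhibitor p21, was not called (0.22 ± 0.59), and Mdm2, the p53 ubiquitin ligase, was lower (-0.59 ± 0.12), a direction that turned on the scale of 1 common FPKM total.

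Hox genes, which encode position along the body axis, were higher than the average in 14 of 26 and lower in 6. Only Hoxd13 was higher than each organ, with 4.93, 4.49 and 2.25 FPKM in tumor and at most 0.105 FPKM in organs (2.22 ± 0.11). Hoxa7, Hoxc9 and Hoxd9 were next (1.67 ± 0.12, 1.42 ± 0.12 and 1.36 ± 0.11), and kidney and muscle means of each were at least 3.89 FPKM. Hoxb4 was lowest against the organs (-1.17 ± 0.11). Kidney held the highest Hoxd9 level, with a mean of 29.0 FPKM.

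**Figure D3:**
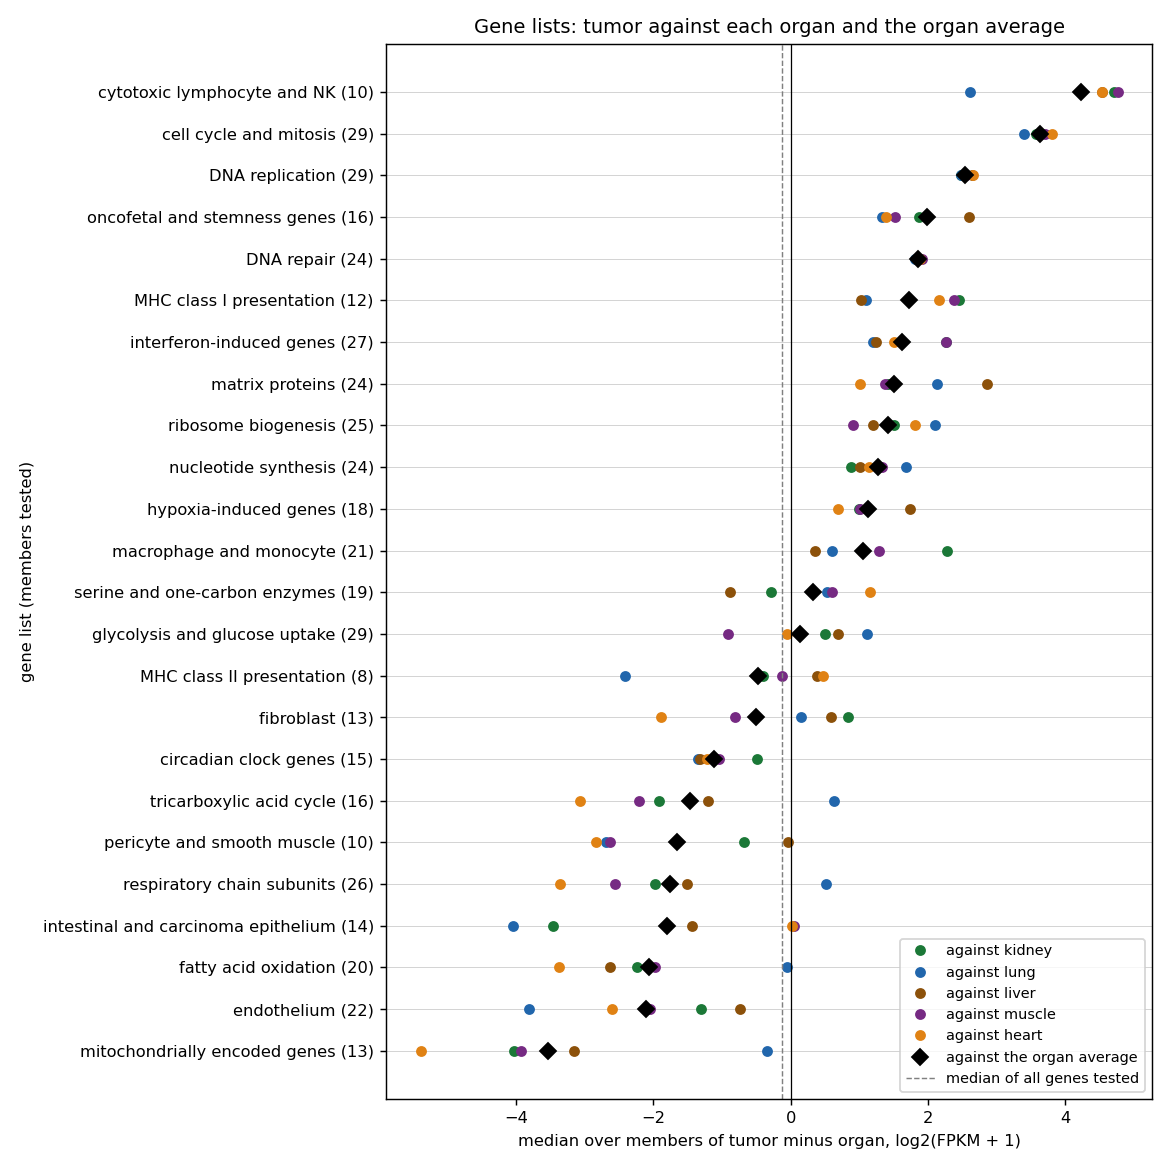
Median difference between tumor and each organ (coloured points) and between tumor and the organ average (black diamonds) in log2(FPKM + 1) for 24 gene lists, with the number of members tested in brackets and a dashed line at the median of all genes tested (-0.12). Proliferation and cytotoxic lists lie right of 0 against every organ, while respiratory subunits and the tricarboxylic acid cycle lie right of 0 against lung and left of it against the other 4 organs. The signs of the MHC class II and fibroblast medians turn when libraries are scaled to 1 common FPKM total.

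Matrix genes were higher in 16 of 24 members and higher than each organ in 8, with a median of 1.5. Col6a3, a chain of collagen VI, measured 108, 66.5 and 178 FPKM in tumor and at most 7.26 FPKM in organs (5.04 ± 0.32). Col6a1 and Col6a2 measured 199, 174 and 635 and 75.0, 65.5 and 307 FPKM, and Col5a1 67.7, 56.3 and 159 FPKM. Replicate 3 was the highest tumor library in each of these 4 genes, and even the lowest tumor library exceeded every organ library. Spp1, or osteopontin, measured 835, 794 and 524 FPKM in tumor and 850.2, 555 and 405 FPKM in kidney, and tumor and kidney overlapped. Fn1, fibronectin, stood at 358, 264 and 319 FPKM in tumor and 488 FPKM on average in liver, its main source in blood plasma. Bgn, a proteoglycan of the matrix, was lower than the average (-1.34 ± 0.31).

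Among matrix proteases and their regulators, 11 of 22 were higher and 2 lower. Timp1, an inhibitor of matrix metalloproteinases, measured 55.3, 61.2 and 60.5 FPKM in tumor and at most 5.06 FPKM in organs (4.55 ± 0.22), whereas its relative Timp3 measured 2.86, 0.896 and 0.974 FPKM in tumor and a mean of 114 FPKM in kidney (-3.34 ± 0.30). Mmp14, a metalloproteinase at the cell membrane, measured 114, 106 and 121 FPKM (3.50 ± 0.20). Mmp11 and Adamts4 followed (3.27 ± 0.24 and 3.14 ± 0.16). Tumor and organs did not overlap in Timp1, Mmp14, Mmp11 or Adamts4.

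Fibroblast genes were mixed. Of 13 tested, 3 were higher and 6 lower than the average, none was called against each organ, and the list median of -0.51 turned positive on the scale of 1 common FPKM total. Pdgfra, a growth factor receptor of fibroblasts, measured 20.5, 15.7 and 39.9 FPKM in tumor (2.14 ± 0.24). Dpt, Pi16 and Tcf21, genes of resident fibroblasts, were lower (-1.40 ± 0.42, -1.83 ± 0.25 and -2.85 ± 0.21), Dpt not without tumor replicate 1 (adjusted p = 0.0737, limma) or 2 (0.0775). Acta2, the smooth muscle actin of contractile cells, measured 6.07, 4.69 and 2.74 FPKM in tumor and a mean of 73.2 FPKM in heart (-2.09 ± 0.23).

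Genes of blood vessel cells were mostly lower. Of 22 endothelial genes, 20 were lower than the organ average and 9 lower than each organ, with a median of -2.11. The median was -3.82 against lung and -0.74 against liver. Tek, the angiopoietin receptor, measured 0.402, 0.196 and 0.358 FPKM in tumor and 2.54 to 71.5 FPKM in organs (-3.54 ± 0.18, adjusted p = 2.82e-11, limma). Kdr, the main VEGF receptor, measured 1.41, 1.41 and 1.96 FPKM in tumor and no less than 3.43 FPKM in an organ (-2.48 ± 0.24). Apln, a peptide of sprouting vessels, was an exception, higher than each organ at 8.09, 7.44 and 5.48 FPKM (1.89 ± 0.21). Pericyte and smooth muscle genes were lower in 9 of 10 members, Des, Myh11 and Rgs5 among them (-4.12 ± 0.13, -2.81 ± 0.17 and -2.49 ± 0.25). Their median was -2.84 against heart and -0.04 against liver, and none was lower than each organ.

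Other host cell lists were lower than the organ average as well, but not against every organ in the adipocyte and nerve lists. Against each organ, 1 adipocyte gene was lower and 0 erythroid, nerve or skin genes. Adipocyte genes were lower in 8 of 9, with Adipoq at 0.0436, 0 and 0 FPKM in tumor. Their median was -5.10 against muscle, -1.46 against kidney, -1.36 against lung, -0.19 against heart and 0.0 against liver. Erythroid genes were lower in all 7 of 7, where Hba-a1 measured 61.6, 82.0 and 11.2 FPKM in tumor and 5998, 3454 and 596 FPKM in lung. Nerve and Schwann cell genes were lower in 7 of 8 and skin epidermis genes in 3 of 4. The nerve median was -1.68 against lung, -1.28 against muscle, -0.39 against heart, -0.01 against kidney and 0.06 against liver. Krt5 and Krt14, keratins of the basal epidermis, measured 0.344, 0.211 and 0.178 FPKM and 0.377, 0.246 and 0.339 FPKM in tumor. Krt14 did not pass the filter and was not tested. The adipocyte list summed to 3.06 to 9.27 FPKM in tumor and 986 to 2250 FPKM in muscle, and the skin list to 0.777 to 3.16 FPKM in tumor. Genes near 0 in tumor passed the filter through an organ that is part of the average. Their lower direction in these 2 lists was therefore largely fixed by the filter.

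Lymphocyte genes differed by class. Of the cytotoxic lymphocyte and natural killer genes, all 10 of 10 tested were higher than the average and 7 higher than each organ, with a median of 4.23. Prf1, the pore-forming perforin, measured 21.7, 44.5 and 13.5 FPKM in tumor and 6.40, 2.11 and 3.08 FPKM in lung (4.05 ± 0.25). Gzmb measured 34.3, 54.2 and 22.1 FPKM in tumor and 8.73, 2.31 and 3.23 FPKM in lung (4.41 ± 0.25). Replicate 2 was the highest tumor library in both, and no lung library reached a tumor library. Gzma, Nkg7 and Klrd1, by contrast, were no higher than in lung, with 5.59, 6.90 and 7.38 FPKM of Gzma in tumor and 46.3, 10.7 and 15.8 FPKM in lung.

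T cell genes were weakly expressed. Of 15 listed, 7 passed the filter; 4 were higher than the average and none higher than each organ. Trbc2, a constant segment of the receptor, measured 1.87, 2.54 and 2.66 FPKM in tumor and 15.2, 6.86 and 6.46 FPKM in lung (0.77 ± 0.20). Cd8a measured 0.646, 0.785 and 0.363 FPKM, Foxp3 0.219, 0.159 and 0.208 FPKM and the receptor PD1, Pdcd1, 1.14, 1.11 and 0.201 FPKM in tumor, and none of them passed the filter. Lung was the organ with the highest mean of every T cell member tested.

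Checkpoint genes were higher in 7 of 12 members tested and lower in 2. Havcr2, or TIM-3, measured 6.53, 4.33 and 4.17 FPKM in tumor and at most 3.51 FPKM in organs (2.01 ± 0.11). Cd276, or B7-H3, measured 7.94, 7.80 and 4.45 FPKM (1.99 ± 0.15). Cd274, which encodes PD-L1, was higher than the average (0.99 ± 0.24, adjusted p = 0.00142, limma) at 6.68, 6.23 and 3.09 FPKM, with 6.57, 2.19 and 3.85 FPKM in lung and 3.93, 4.18 and 2.62 FPKM in heart. Tumor replicate 3 lay within the range of those organs, and Cd274 was not called higher than each organ. Nt5e and Entpd1, enzymes that make adenosine, were lower (-1.34 ± 0.11 and -0.98 ± 0.14).

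B and plasma cell genes were lower in 5 and higher in 2 of 9 tested, with Igkc at 0.679, 0.650 and 0.146 FPKM in tumor and a mean of 100.3 FPKM in lung. The higher members were Cd79a and Pax5, and Cd79a was not called without tumor replicate 1 (adjusted p = 0.0519, limma) or 2 (0.306). Dendritic cell genes were higher in 3 of 5, led by Fscn1, an actin-bundling protein also made by cancer cells (145, 168 and 157 FPKM, 4.60 ± 0.14), while Clec9a, a receptor of cross-presenting dendritic cells, was lower (-1.08 ± 0.11). Neutrophil genes were called in 1 of 8, Ltf, which was lower (-0.72 ± 0.29) but not called without any 1 tumor library (adjusted p = 0.0876, 0.0875 and 0.0676 without replicates 1, 2 and 3, limma). S100a8 and S100a9, abundant in neutrophils, measured 11.1, 8.06 and 0.598 and 16.3, 19.5 and 1.34 FPKM in tumor and means of 463 and 753 FPKM in lung, and were not called.

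Macrophage and monocyte genes were higher in 14 of 21 and lower in 2, with a median of 1.05. Gpnmb, a lysosomal glycoprotein of activated macrophages that tumor cells can also make, measured 32.9, 39.6 and 5.97 FPKM in tumor and at most 4.95 FPKM in organs (3.50 ± 0.37). Nos2, the inducible nitric oxide synthase, measured 15.5, 7.66 and 2.41 FPKM (2.14 ± 0.27), with replicate 3 near the heart mean of 2.27 FPKM. Nos2 was not higher than each organ without tumor replicate 1 (adjusted p = 0.0679, limma), tumor replicate 2 (0.0519) or heart replicate 3 (0.0527). Cd68, a lysosomal marker, measured 31.2, 38.5 and 42.3 FPKM (2.12 ± 0.26). The lower members were Cd163, a scavenger receptor of resident macrophages (-2.08 ± 0.26), and Apoe, an apolipoprotein that liver also makes (-1.79 ± 0.39), which was not called without liver. Csf1r, the receptor that defines the lineage, was not called (-0.50 ± 0.26). Tumor replicate 3 carried the most complement C1q transcript, with C1qa at 73.3, 94.0 and 249 FPKM and Lyz2 at 50.3, 71.3 and 234 FPKM over the 3 libraries.

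Chemokines and inflammatory mediators were higher in 16 of 21 and higher than each organ in 9. Beside Ccl2 and Cxcl10, Ccl7, another monocyte chemokine, measured 41.4, 49.9 and 30.5 FPKM in tumor and at most 4.62 FPKM in organs (4.72 ± 0.21). Ptges, an enzyme of prostaglandin E synthesis, measured 33.7, 25.1 and 47.6 FPKM (3.49 ± 0.28), and Ccl12 4.60, 12 and 32.1 FPKM (3.06 ± 0.34). A chemokine was also found in the other direction. Cxcl12, which stromal cells make to retain leukocytes, measured 0.902, 0.300 and 0.136 FPKM in tumor and 14.6 to 68.3 FPKM in organs, lower than each of them (-4.51 ± 0.18, adjusted p = 2.03e-12, limma).

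Interferon-induced genes were higher than the average in 24 of 27 members, none was lower, and 9 were higher than each organ, with a median of 1.62. Zbp1, a nucleic acid sensor, measured 18.7, 31.4 and 25.1 FPKM in tumor and at most 13.2 FPKM in organs (3.07 ± 0.39). Rsad2, or viperin, measured 47.0, 45.2 and 29.6 FPKM (2.96 ± 0.35), and Gbp2, a guanylate-binding protein, 45.9, 49.5 and 40.4 FPKM (2.81 ± 0.22). The call of Zbp1 against each organ was lost without tumor replicate 2 (adjusted p = 0.0536, limma) or liver replicate 1 (0.0708). Isg15 was higher than the average (2.53 ± 0.56) but not than each organ, and its 6.66, 53.7 and 25.0 FPKM in liver and 55.1, 18.8 and 5.61 FPKM in lung overlapped with 47.7, 91.2 and 103 FPKM in tumor. Ifit3, Irf7 and Mx2 were not called.

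MHC class I presentation genes were higher in all 12 of 12 members and higher than each organ in 7. Tap1, a subunit of the peptide transporter, measured 52.1, 48.0 and 50.1 FPKM in tumor and at most 15.5 FPKM in organs (3.23 ± 0.22). The immunoproteasome subunits Psmb8, Psmb10 and Psmb9 differed by 2.65 ± 0.21, 2.28 ± 0.25 and 2.19 ± 0.26, the last losing its call against each organ without tumor replicate 2 (adjusted p = 0.0842, limma) or 3 (0.124) and lung replicate 2 (0.128) or 3 (0.107). The class I heavy chains H2-K1 and H2-D1 were higher than the average (1.60 ± 0.18 and 1.46 ± 0.17) but not than liver, where H2-K1 averaged 1021 FPKM. These heavy chains are close relatives, so the split of reads between them is uncertain. MHC class II genes were mixed: 2 of 8 were higher, 2 lower, and the median of -0.47 turned positive on the scale of 1 common FPKM total. H2-Ab1 measured 19, 11.9 and 26.5 FPKM in tumor and a mean of 109.5 FPKM in lung. Its difference of -0.77 ± 0.31 was not called without tumor replicate 1 (adjusted p = 0.0683, limma) or 2 (0.224) and turned on the same scale.

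Subunits of the standard proteasome lay near the organ level. Of 23 subunits 4 were higher and 4 lower, with a median of -0.12 that turned positive on the scale of 1 common FPKM total. Psma5 was highest against the organs (1.02 ± 0.15) and Psmc3 lowest (-0.57 ± 0.11), though Psmc3 turned on that scale (0.59). Unfolded protein and stress response genes were higher in 11 of 20, led by Asns and Trib3, which amino acid shortage induces (3.06 ± 0.33 and 2.85 ± 0.21). Herpud1 and Dnajb9, of protein quality control in the endoplasmic reticulum, were lower than each organ (-1.94 ± 0.27 and -2.26 ± 0.25), and for Herpud1 that call was lost without tumor replicate 2 (adjusted p = 0.0527, limma), without lung replicate 2 (0.0631) or on the scale of 1 common FPKM total (0.537).

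Lipid synthesis genes were higher in 14 of 23, although 1 alone, Srebf2, the transcription factor of cholesterol synthesis, was higher than each organ (1.59 ± 0.12), a call lost without tumor replicate 1 (adjusted p = 0.0695, limma) or liver replicate 3 (0.0681). Scd2, a fatty acid desaturase, had the largest difference (3.04 ± 0.24) at 153, 124 and 169 FPKM in tumor. Scd1, its relative, was lower (-1.29 ± 0.51), but not without tumor replicate 2 (adjusted p = 0.0566, limma) or 3 (0.147). Polyamine enzymes were lower in 6 and higher in 1 of 12, again near the 43.0% of all genes that were lower. The 1 higher gene was Srm, spermidine synthase, at 50.8, 77.0 and 58.0 FPKM (2.02 ± 0.17), which was not higher than each organ without tumor replicate 2 (adjusted p = 0.139, limma), liver replicate 2 (0.11) or liver replicate 3 (0.0811). The list median of -0.40 turned positive on the scale of 1 common FPKM total, where 7 members were higher and 0 lower.

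Circadian clock genes were lower in 9 of 15 and lower than each organ in 7, with a median of -1.11. Dbp, a clock output transcription factor, measured 1.65, 1.10 and 2.02 FPKM in tumor and 9.97 to 54.4 FPKM in organs (-3.69 ± 0.38). Its relatives Tef and Hlf differed by -2.82 ± 0.18 and -2.60 ± 0.18, and the clock repressor Nr1d1 by -2.53 ± 0.34. The higher members were Bhlhe41, Cry1 and Arntl, which encodes the activator BMAL1 (0.96 ± 0.16), and Cry1 was not called without tumor replicate 1 (adjusted p = 0.111, limma) or 2 (0.0973). Collection times were not given in the sources used here, so time of day and tissue cannot be told apart in these genes.

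Source genes of known MC38 neoantigens, mutant peptides that T cells recognise, were higher than the average in 3 of 4. Reps1 was higher than each organ (0.66 ± 0.10) at 9.29, 8.0 and 7.73 FPKM, and Adpgk was not called (0.17 ± 0.13) at 2.02, 2.78 and 2.79 FPKM in tumor. The call of Reps1 against each organ was lost without tumor replicate 1 (adjusted p = 0.0701, limma) or muscle replicate 3 (0.0566). The files give levels of genes, not of mutant alleles.

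Among genes lower than each organ with no overlap between libraries, the largest differences belonged to metabolic and membrane transport genes. Ndrg2, a differentiation-associated gene of the same family as Ndrg1, measured 1.17, 0.281 and 0.565 FPKM in tumor and 29.4 to 1142 FPKM in organs (-7.45 ± 0.15, adjusted p = 7.67e-16, limma). Inmt, a methyltransferase of small amines, measured 0.0188, 0.216 and 0.0324 FPKM, and Ces1d, a carboxylesterase that breaks down lipids, 0.0127, 0 and 0.0438 FPKM. Organ levels of Inmt ranged from 5.54 to 766 FPKM and those of Ces1d from 24.1 to 254 FPKM. Differences were -6.41 ± 0.55 and -6.28 ± 0.35. Every tumor library lay below every organ library, as the choice of genes required.

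Chchd10, a mitochondrial protein of the cristae, measured 13.5, 10.3 and 3.26 FPKM in tumor and at least 84.5 FPKM in organs (-6.01 ± 0.29). Cd36, a fatty acid importer, measured 2.43, 1.81 and 0.729 FPKM in tumor and 14.9 to 542 FPKM in organs (-5.61 ± 0.18). Gpd1, which links glycolysis to lipid synthesis, measured 0.295, 0.127 and 0.228 FPKM (-5.78 ± 0.12), and Atp1b1, a subunit of the sodium pump, 0.616, 0.786 and 0.850 FPKM (-5.74 ± 0.32). In these 4 genes, too, absence of overlap was a condition of the choice. Cdo1, Aldh1a1, Cryab and Ephx2 completed the set, with differences of -5.94 ± 0.23, -5.83 ± 0.28, -5.79 ± 0.20 and -5.68 ± 0.13. Cdo1 degrades cysteine, Aldh1a1 makes retinoic acid, Cryab is a small heat shock protein of muscle and Ephx2 a lipid epoxide hydrolase. The call of Cryab against each organ was lost on the scale of 1 common FPKM total (adjusted p = 0.88, limma), and its nearest organ was liver, with a mean of 2.84 FPKM.

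Most defining genes of the 5 organs were at or near 0 in tumor and high in their own organ, which checks the tissue labels. A gene high in its own organ passes the filter through that organ, which is part of the average. A lower value than the average was therefore largely fixed by the choice of genes. Myl7 and Sln of the heart list, given below, were near 0 in heart and passed through other tissues. Against the other 4 organs the median of the kidney genes ranged from -0.08 (muscle) to 0.06 (liver). Umod measured 0.0872, 0.0209 and 0.591 FPKM in tumor and a mean of 1175 FPKM in kidney, Sftpc 0.0749, 0 and 0 FPKM and 11591 FPKM in lung, and Alb 1.59, 0.985 and 1.64 FPKM and 47826 FPKM in liver. Of 12 heart genes, 2 were nevertheless higher than the average. They were Nkx2-5, a cardiac transcription factor, at 8.17, 10.3 and 14.5 FPKM in tumor and 66.2, 84.5 and 69.5 FPKM in heart, and Myl7, an atrial myosin light chain, at 6.73, 14.1 and 3.12 FPKM in tumor. Myl7 and Sln, both atrial genes, averaged 0.394 and 0.0416 FPKM in the heart libraries and 69.1 and 7.76 FPKM in lung, so that transcripts of the atria were near 0 in the heart libraries. Myh6 and Tnnt2, sarcomere genes of heart, measured 0.323, 0.318 and 0.00408 FPKM and 1.09, 0.275 and 0.344 FPKM in tumor.

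Differences among the tumor libraries themselves were largest in a small number of genes. H19, an imprinted noncoding RNA, measured 20.9, 7.54 and 166 FPKM in tumor replicates 1, 2 and 3, against means of 380.3 FPKM in muscle and at most 25.6 FPKM in the other organs. Cilp, a cartilage matrix protein, measured 13.4, 9.09 and 132 FPKM, Mfap4, a protein of elastic fibres, 2.51, 0.810 and 32.1 FPKM and Sulf2, a heparan sulfatase, 4.81, 1.75 and 31.8 FPKM. Fcrls and Cx3cr1, genes of resident macrophages, measured 0.580, 1.75 and 28.3 and 0.802, 1.85 and 15.2 FPKM. Replicate 3 was the highest in all 6 genes.

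In Upk1b, Dusp4 and Wfdc2 the order was the opposite. Upk1b, a membrane protein of urinary epithelium, measured 30.1, 34.4 and 1.73 FPKM in tumor replicates 1, 2 and 3, Dusp4, an inhibitor of growth factor signalling, 43.5, 27.2 and 3.50 FPKM, and Wfdc2, a secreted epithelial protein, 19.1, 33.5 and 2.50 FPKM. Replicate 3 was the lowest in these genes. The transfer RNA gene mt-Tp measured 521, 106 and 45.7 FPKM, highest in replicate 1. Mfap4 and Sulf2 were not called with all libraries and turned to differences of -0.71 and -0.96 without replicate 3. H19 was called higher than the average (2.20 ± 0.51) with any 1 library left out, but its difference was -0.32 when organs were averaged as FPKM rather than on the log scale. Wfdc2, not called with all libraries, was higher without replicate 3 (1.06, adjusted p = 0.00325, limma). Csf1r and Lyz2, also not called, were lower without it (-1.04 and -1.03, adjusted p = 0.000117 and 0.00428, limma). Cx3cr1 (1.05 ± 0.41) was not called without replicate 3 (adjusted p = 0.658, limma), and neither was mt-Tp (0.0967).

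**Figure D4:**
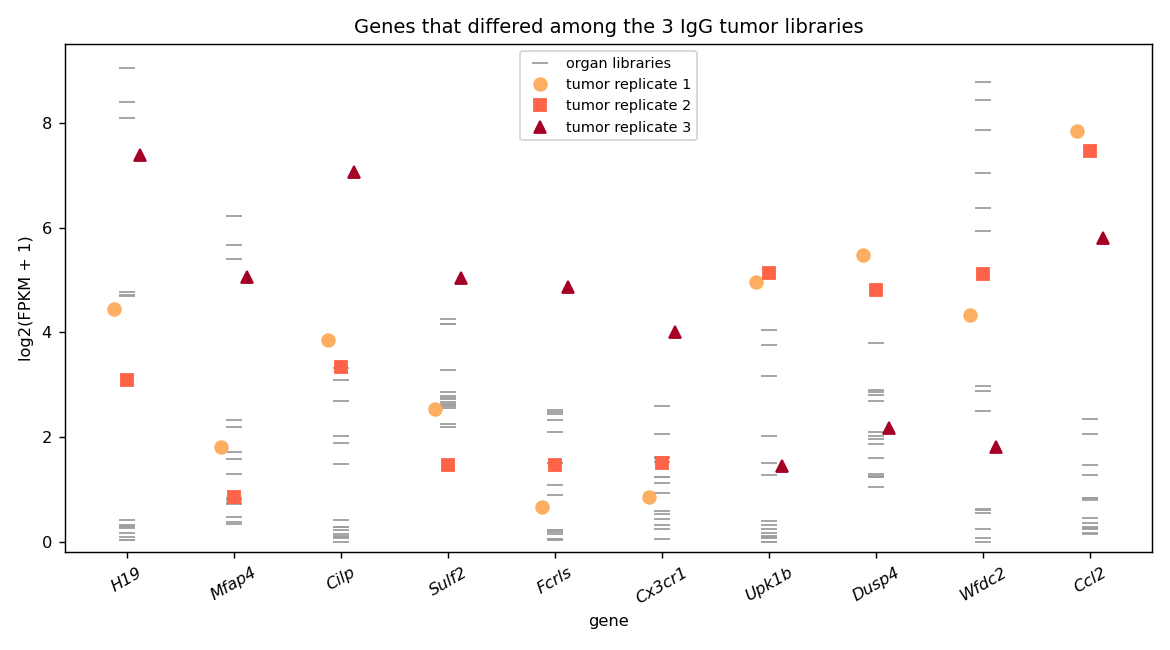
Log2(FPKM + 1) of 10 genes in the 3 IgG tumor libraries (coloured symbols, 1 shape per replicate) and in the 15 IgG organ libraries (grey dashes). Replicate 3 is the highest tumor library for H19, Mfap4, Cilp, Sulf2, Fcrls and Cx3cr1 and the lowest for Upk1b, Dusp4, Wfdc2 and Ccl2.

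The same contrast was repeated in the 18 libraries of ICB-treated mice, over the same 15230 genes. There 5586 genes (36.7%) were higher and 6940 (45.6%) lower than the organ average, 2441 (16.0%) higher than each organ and 1188 (7.80%) lower than each. Of the genes higher than each organ under IgG, 1922 were also called under ICB, which is 93.0% of the IgG set and 78.7% of the ICB set. Of those lower than each organ, 756 were shared, 91.0% of the IgG set and 63.6% of the ICB set. The sign was kept in 5241 of 5279 genes higher than the average and in 6538 of 6551 lower.

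The ICB tumor libraries were not equally alike either. In ICB tumor replicate 2 the 11 skeletal muscle genes summed to 417 FPKM, against 21.3 and 6.01 FPKM in ICB replicates 1 and 3 and 7.81 to 13.7 FPKM in the IgG tumors. With it 4 of the 11 were called lower than the average under ICB, and without it all 11. Without that library, 2239 genes were higher than each organ and 1031 lower than each under ICB, and they included 1856 (89.8%) and 721 (86.8%) of the IgG sets.

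The genes compared in this paragraph kept their direction, with the exception of Mfap4, which was called in neither set (0.525 under IgG and -0.05 under ICB). Top2a differed by 5.34 under IgG and 5.34 under ICB, Ccl2 by 6.25 and 6.25, Phgdh by 4.88 and 4.91, and Col6a3 by 5.04 and 5.39. The granzymes fell short of their IgG differences, at 6.11 and 4.34 for Gzmg, 6.00 and 4.36 for Gzmc, 5.86 and 4.36 for Gzmf and 5.80 and 4.27 for Gzmd. The tests of these 4 changes gave adjusted p of 0.177, 0.0718, 0.381 and 0.295 (limma, interaction). The median of the cytotoxic list was 4.23 under IgG and 2.81 under ICB. Among lower genes, Ndrg2 differed by -7.45 and -6.79, Cd36 by -5.61 and -4.88 and Cxcl12 by -4.51 and -3.58. Cryab differed by -5.79 and -5.20 and was not lower than each organ under ICB. Tested directly, the contrast differed between ICB and IgG libraries in 30 of 15230 genes at an adjusted p below 0.05 (limma). At an unadjusted p below 0.05 it differed in 953 of 15230, where a share of 0.05 is expected if no gene differs. The number called after adjustment ranged from 14 to 205 when 1 of the 6 tumor libraries was left out.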

How the data were processed

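Bulk RNA sequencing values were taken from 1 table of FPKM deposited by the authors, with 36 sample columns, all of which were mapped to samples (0 per-sample columns were left unused). Per the submitters' processing notes, HISAT2 2.1.0, edgeR and the mouse build mm10 were used. Which read counter, annotation and strand setting were used is not given in the sources used here, so reads of overlapping or antisense genes may not be told apart. FPKM values were whole multiples of 1 read in all 18781 rows (tolerance 0.001), which gave the read totals, and rows without a gene name held 0.0834% to 0.374% of reads. Depth limits precision most for genes near the filter.

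Of 18781 rows, 15 had no name and 3 symbols were held by 2 rows each, and these were left out. Genes with an FPKM of at least 1 in 3 libraries of 1 tissue were tested as log2(FPKM + 1), with a pseudocount of 1, in limma 3.58.1 under R 4.3.3 with a mean-variance trend, 6 group means over the 18 IgG libraries and Benjamini-Hochberg adjustment at 0.05. The test was checked on simulated data. Python 3.11.15, numpy 2.4.6, pandas 2.3.3 and matplotlib 3.10.9 were used for summaries and plots. Genes were named as the 12 largest differences each way among those called against each organ without overlap, the 10 most abundant higher genes, up to 6 members of each of 51 gene lists with any member of the other direction or without a call where it was counted, 9 genes of interest and the 10 with the largest range among tumor libraries. Members named beyond these rules, and all genes of the last section below, were chosen after their values were seen. The comparison and the lists were chosen with earlier results of these data known. Some genes that these rules name are not reported here. Results were recomputed under 35 alternative settings.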

Additional observations from a re-analysis of the deposited data

Results flagged for a closer look

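The contrast between tumor and organs differed between the ICB and the IgG libraries in 30 genes (limma, interaction term, adjusted p below 0.05), and these were looked at again because the size of a tumor-to-organ difference was not the same in both sets of mice. Genes entered through their FPKM in the IgG libraries, so that a gene expressed under ICB alone could not be found. With the filter passed in both sets 23 genes were called, and with the filter passed in either set 37, of which 20 were larger and 17 smaller under ICB. The number depended on single tumor libraries: it was 56, 14 and 205 without IgG tumor replicates 1, 2 and 3, and 71, 25 and 14 without ICB tumor replicates 1, 2 and 3. These checks were added after the data were seen.

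Has2, which makes the matrix polysaccharide hyaluronan, had a mean of 2.73 FPKM in IgG tumors and 10.6 FPKM in ICB tumors. Its tumor-to-organ difference was 1.72 under IgG and 3.33 under ICB, 1.62 apart (adjusted p = 0.000792, limma). Fbln2, a fibulin of the extracellular matrix, had tumor means of 23.8 and 65.6 FPKM and differences of 2.12 and 3.44, 1.32 apart (adjusted p = 0.00365, limma). Both kept their call without any 1 tumor library, with a largest adjusted p of 0.00667 for Has2 and 0.0303 for Fbln2 (limma).

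Bcat1, an enzyme of branched-chain amino acid breakdown, and Aldh1l2, a mitochondrial folate enzyme, were further above the organs under ICB, by 0.59 (adjusted p = 0.0258, limma) and 0.55 (adjusted p = 0.0269, limma). Bcat1 was not called without IgG tumor replicate 1 (0.0642) or 2 (0.0812) or ICB tumor replicate 2 (0.214) or 3 (0.0784), and Aldh1l2 not without IgG tumor replicate 2 (0.148) or ICB tumor replicate 3 (0.212). Il2rb, a receptor chain of T and natural killer cells, averaged 9.15 FPKM in IgG and 4.95 FPKM in ICB tumors, and its difference changed by -1.11 (adjusted p = 0.0482, limma). That call was lost without IgG tumor replicate 2 (0.328), ICB tumor replicate 2 (0.281) or ICB tumor replicate 3 (0.11), and with the filter passed in both sets (0.0546). Dppa4, a gene of early embryonic cells, averaged 8.07 and 3.77 FPKM, a change of -1.02 (adjusted p = 0.0132, limma), which was lost without IgG tumor replicate 2 (0.0809).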

How the results depend on the processing

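The numbers of genes called were within 1.5 times of those reported under most settings, and the exceptions follow. Scaled to 1 common FPKM total, 9471 genes were higher and 3832 lower than the organ average, 4555 higher than each organ and 375 lower than each. A required log2 difference of at least 1 left 1511, 2025, 546 and 130 genes in the same order. With a filter of FPKM 5, 1375 genes were higher than each organ, fewer genes being tested, and without lung 1549 were lower than each of the other 4 organs. Leaving out 1 library at a time gave 4890 to 5428 higher, 6081 to 6650 lower, 1816 to 2154 higher than each organ and 663 to 881 lower than each. The titles carry numbers shared across tissues, but the labels do not say that a number is an animal. Of 28 pairs of libraries with 1 number, 17 had deviations correlated above 0.1 (median 0.14, lowest -0.105), against 16 of 107 other pairs (median -0.029), so that the condition set for pairing, every pair above 0.1, was not met and the numbers were not used to pair libraries. With that number as a replicate block, the counts were 5413, 6681, 2153 and 906. Linear models of the reads recovered from FPKM (limma-voom, added after the data were seen) gave 5668, 5977, 2051 and 1105. The planned edgeR and DESeq2 tests of recovered reads were not run because the deposited unit is FPKM. Averaging organs as FPKM has no test, so it gives no counts. It kept the sign of 5143 of 5279 higher and all 6551 lower genes. An average of FPKM cannot lie below the log-scale average, so the lower genes could hardly turn. The setting therefore checked the higher genes alone.

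For 49 named genes, 1701 of 1759 recomputed values kept direction and call or moved by less than the tumor SD. Signs turned for H19 (-0.32) with organs averaged as FPKM, for Mfap4 (-0.79) and Sulf2 (-1.12) with library weights, and without tumor replicate 3 (-0.71 and -0.96). Across the libraries left out in turn, Mfap4 ranged from -0.71 to 1.38 and Sulf2 from -0.96 to 0.82. Of 1797 recomputed list medians, 1495 moved by less than the tumor SD or 0.05, whichever was larger, 286 moved further without a change of sign and 16 turned. Averaging organs as FPKM gave -0.25 for serine and one-carbon enzymes, -0.49 for glycolysis, -0.06 for fatty acid and cholesterol synthesis, -0.07 for the unfolded protein response and -0.18 for Hox genes. Scaling to 1 common FPKM total gave 0.76 for polyamine enzymes, 1.04 for the proteasome, 0.48 for MHC class II and 0.25 for fibroblast genes, and quantile normalization gave 0.61 for the proteasome. Leaving out lung gave -0.04 for serine and one-carbon enzymes and 0.15 for neutrophil genes. The proteasome median was 0.05 without liver and 0.18 without muscle, that of kidney genes 0.00 without kidney and that of skeletal muscle genes 0.15 without muscle. The cause was not tested, other than that an organ left out takes its own marker genes with it.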

Other observations

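A set of 63 genes had an FPKM of at least 1 in each IgG tumor library and below 0.1 in all 15 IgG organ libraries. They were selected for this pattern, so their difference from the organs is a description. In the ICB libraries, 51 of them also reached 1 FPKM in all tumor libraries, and 37 also stayed below 0.1 FPKM in all organ libraries. Of the 63 genes, 42 were protein coding and 19 (30.2%) lay on the X chromosome, against 469 of 15158 genes tested (3.09%) and 119 of 2061 genes higher than each organ (5.77%). Members with known roles in germ cells or early embryos included Dppa4, a developmental pluripotency gene, at 5.91, 8.49 and 9.82 FPKM in tumor replicates 1, 2 and 3, and its neighbour in function Dppa2 at 4.31, 2.65 and 7.98 FPKM. Luzp4, a messenger RNA export factor of testis, measured 6.42, 6.88 and 8.10 FPKM and Nxf3, another export factor, 14, 11.7 and 21.6 FPKM. Xlr3c measured 20.7, 22.2 and 18.6 FPKM, Rhox2d, a reproductive homeobox gene, 2.42, 1.85 and 6.51 FPKM and Mageb2, a melanoma antigen family gene, 3.36, 2.40 and 1.33 FPKM. The Xlr3 and Rhox genes have near-identical copies, so their single values are uncertain.

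Of genes on the Y chromosome, 4 were low in tumor. Ddx3y, an RNA helicase, measured 1.04, 0.771 and 1.07 FPKM in tumor and 5.14 to 29.0 FPKM in organs, so that the tumor mean was 7.21% of the organ mean. Eif2s3y, a translation factor, measured 0.803, 0.617 and 0.704 FPKM in tumor and 5.47 to 14.1 FPKM in organs (7.72%). Uty and Kdm5d, histone demethylases, stood at 7.97% and 8.87% of their organ means. All 4 were lower than each organ. In the ICB libraries, Ddx3y measured 0.924 to 1.25 FPKM in tumor and 5.94 to 21.3 FPKM in organs, and all 4 genes were again lower in tumor than in each organ. Gm21742, a pseudogene on the Y chromosome, is by contrast a member of the set of 63 genes above, at 2.80, 4.31 and 2.60 FPKM in tumor replicates 1, 2 and 3. The labels used here do not give the sex of the mice or of the line.

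Transcription factors of several lineages were measured in tumor. Pax5, the B cell identity factor, measured 2.08, 2.53 and 2.66 FPKM in tumor. Nkx2-5, a cardiac factor, measured 8.17, 10.3 and 14.5 FPKM while Myh6, a heart myosin, measured 0.323, 0.318 and 0.00408 FPKM. Sox2, a pluripotency factor, measured 8.94, 7.65 and 5.22 FPKM in tumor and at most 10.1 FPKM in organs, the highest value being in lung.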
